A study of Rattus norvegicus with 20 samples.

Results

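The genes of oxidative phosphorylation that are encoded in the nucleus were described complex by complex in rat brain 6 hours after isoflurane, a volatile anaesthetic. They were chosen by name: every gene whose symbol starts with Nduf, Uqcr or Atp5, the genes Sdha, Sdhb, Sdhc and Sdhd, and the genes whose symbols start with Cox4 to Cox8. The array named 86 such genes among 14217 named genes in all. Grouped by the start of the symbol alone, they comprised 36 genes of complex I and 6 complex I assembly factors whose symbols start with Ndufaf. There were 4 genes of complex II, 7 of complex III, 17 of complex IV (1 of them, Cox6c-ps1, a pseudogene) and 16 of complex V. Ndufa4 and Ndufa4l2 were thus counted with complex I by name only, and the complex their proteins belong to was not checked. Where several probe sets named a gene, the brightest was used. Of the 86 genes, 82 were bright enough to be tested, with mean log2 signals over 6.62, the 40th percentile of all probe sets. The other 4, Cox6a2, Cox6b2, Cox7b2 and Cox8b, are second forms of complex IV subunits known from muscle or testis, and were described only.

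The 5 complexes sit in the inner mitochondrial membrane. Complex I takes electrons from NADH and complex II takes them from succinate, complex III passes them on to cytochrome c, and complex IV passes them to oxygen. Complexes I, III and IV pump protons, and complex V (ATP synthase) uses the proton gradient to make ATP, on which synaptic transmission depends heavily. Complex I is a known target of volatile anaesthetics, and mice that lack its subunit Ndufs4 are known to be hypersensitive to them.

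RNA came from male rats of the Sprague Dawley strain, aged 20 weeks and of 250 to 300 g body weight, in 20 samples labelled biological replicates with 1 array each. For the 10 control samples rats breathed oxygen for 15 minutes, and for the other 10 they breathed 2% isoflurane (1.4 MAC, the unit of anaesthetic potency) in oxygen for the same time. All recovered for 6 hours before the tissue, labelled brain cortex, was taken. Since whole tissue was measured, fewer cells of a type and less RNA per cell cannot be told apart.

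The arrays did not all carry cortical genes. On 11 of them (isoflurane replicates 1, 3, 7, 8 and 9 and oxygen replicates 5 to 10) the log2 signal of Pcp2, which Purkinje cells of the cerebellum make, exceeded 12, and these are called Pcp2-high. The other 9 (oxygen replicates 1 to 4 and isoflurane replicates 2, 4, 5, 6 and 10) lay below it and are called Pcp2-low. Besides Pcp2 itself, which defined the sets, the other 3 Purkinje markers (Itpr1, Calb1 and Car8) and all 6 granule cell markers tested were higher on the Pcp2-high arrays without overlap, and 3 of 4 cortical projection neuron markers were lower. Within the Pcp2-low arrays, isoflurane replicates 2, 4, 5 and 6 stood apart, with a mean log2 signal of the granule cell markers of 5.53 to 6.14 against 6.77 to 8.00 on the 4 oxygen arrays and 9.13 on isoflurane replicate 10. Replicate 10 thus lay outside the oxygen arrays in the other direction, as it did for the Purkinje markers (11.40 against 10.10 to 10.53). Fits without the 4 arrays keep it as the only Pcp2-low isoflurane array. The mean log2 ratio of 3' to 5' signal of the control transcripts, a measure of RNA quality, was also lower after isoflurane: 0.93 ± 0.24 (SD, n = 5) against 1.11 ± 0.20 (n = 6) on Pcp2-high arrays, and 0.83 ± 0.08 (n = 5) against 1.30 ± 0.31 (n = 4) on Pcp2-low arrays. Groups were therefore compared in limma with a term for the array set (the blocked fit), and again within each set.

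Promoters were read from RefSeq (assembly GRCr8, 250 bases before to 50 bases after the start) for 78 of the 86 genes. Letters of binding motifs of factors known to act on nuclear respiratory genes were searched on both strands. The NRF1 letters, GCGCA and GCGC with 1 base between them, lay in 15 of the 78 promoters (19.2%). This compares with 4.25% of all 33469 promoters of the same length and 5.66% of the 21842 of protein-coding genes. The ETS letters CCGGAAG, read by GABP, lay in 22 (28.2%) against 8.75% and 10.7%, and the YY1 letters AAGATGGCG in 11 (14.1%) against 1.73% and 2.07%. At least 1 of these 3 was in 41 of 78 (52.6%) against 13.4% of all promoters, a share not counted for protein-coding genes alone. The TATA letters TATAAA went the other way, at 10.3% against 14.2% and 13.0%. By complex, 7 of 34 complex I promoters held the YY1 letters, and 0 of 13 complex IV promoters held those of NRF1 or YY1. These matches describe the letters and show no binding.

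The sequences of the genes on which the results turn are shown with the motif in capitals, 5′ to 3′ on the strand of the gene. Ndufb8 (GRCr8 chr1:253362896-253362925, minus strand) and Ndufs4 (chr2:47794891-47794920, minus strand) both carry the YY1 letters just past the start, and 30 bases around them are given. For Ndufaf5 (chr3:147961362-147961611, plus strand) the 250 bases before the start hold an NRF1 match beginning 15 bases before it. The 250 bases before the start of Atp5if1 (chr5:150026678-150026927, minus strand) hold none of the letters searched. Those of Cox6a2 (chr1:192219717-192219966, minus strand) hold the letters of MEF2, a muscle and neuronal factor (CTA and TAG with 4 bases between them), beginning 50 bases before the start. MEF2 was searched after the difference in Cox6a2 had been seen. Its letters lay in 2 of 78 promoters of these genes (2.56%) against 3.84% of all and 3.39% of those of protein-coding genes.
Ndufb8: ggagaaggtgAAGATGGCGgcgtcccgggc
Ndufs4: tgcccacaggAAGATGGCGgcggtctcaat
Ndufaf5: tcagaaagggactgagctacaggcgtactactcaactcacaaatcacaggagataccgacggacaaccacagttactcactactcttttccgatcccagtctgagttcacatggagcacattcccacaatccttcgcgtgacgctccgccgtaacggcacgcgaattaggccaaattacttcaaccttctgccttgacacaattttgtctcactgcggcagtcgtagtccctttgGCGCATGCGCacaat
Atp5if1: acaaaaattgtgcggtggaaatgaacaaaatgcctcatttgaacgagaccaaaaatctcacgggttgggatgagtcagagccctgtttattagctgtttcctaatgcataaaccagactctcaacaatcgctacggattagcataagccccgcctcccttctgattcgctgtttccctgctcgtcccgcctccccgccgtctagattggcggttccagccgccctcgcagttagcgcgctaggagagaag
Cox6a2: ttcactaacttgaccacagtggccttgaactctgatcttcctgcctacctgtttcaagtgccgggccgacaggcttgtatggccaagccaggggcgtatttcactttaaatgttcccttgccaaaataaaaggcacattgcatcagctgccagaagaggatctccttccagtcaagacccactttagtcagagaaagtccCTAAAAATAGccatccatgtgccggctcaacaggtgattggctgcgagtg

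The first comparison asked which of these genes differed after isoflurane once the array set was taken into account. Of the 82 genes tested, 4 rose and 1 fell (limma, adjusted p under 0.05 over all 18625 probe sets). Among all probe sets 2.58% rose and 4.79% fell, 7.37% in either direction, so the 5 of 82 are no larger a share than the background. At an unadjusted p under 0.05 there were 13 of 82, 12 of them higher, against 27.1% of all probe sets. The 4 that rose were the complex I subunits Ndufb8 and Ndufs4, the complex I assembly factor Ndufaf5 and the ATP synthase inhibitor Atp5if1. The 1 that fell was Cox4i2, an alternative form of complex IV subunit 4, which passed the filter through its oxygen arrays. None was called with the array set left out of the fit (limma, 0 of 82, with 9 at an unadjusted p under 0.05), where 0.0805% of all probe sets rose and 0.317% fell (0.397% in either direction, and 15.8% at an unadjusted p under 0.05). None was called without isoflurane replicates 2, 4, 5 and 6 either (limma, 0 of 82, with 11 at an unadjusted p under 0.05), where 0% of all probe sets were called and 16.2% had an unadjusted p under 0.05.

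Ndufb8, an accessory subunit of the membrane arm of complex I, had log2 signals of 9.46 (lowest), 9.52 (median) and 9.66 (highest) on the 6 Pcp2-high oxygen arrays and of 10.06, 10.04, 10.18, 10.56 and 9.84 on the 5 Pcp2-high isoflurane arrays. Every one of those 5 lay above every oxygen array of the set, and Ndufb8 was the only one of the 82 genes without overlap there (background 0.408% of all probe sets). On Pcp2-low arrays it had 9.51, 9.58, 9.93 and 9.73 after oxygen and 9.79, 9.97, 9.83, 10.20 and 9.68 after isoflurane, and these ranges overlapped. The blocked log2 change was 0.42 ± 0.095 SE (adjusted p = 0.016), and it stayed past the threshold in 20 of 20 fits that left out 1 array, but not with arrays centred on their medians (0.35). Its change was 0.60 on Pcp2-high and 0.21 on Pcp2-low arrays. Since Ndufb8 and Ndufs4 were known from earlier results on these arrays, their calls are no independent evidence.

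Ndufs4, an accessory subunit of the arm of complex I that reaches into the matrix, had 8.99 (lowest), 9.19 (median) and 9.34 (highest) on Pcp2-high oxygen arrays and 9.60, 9.42, 9.74, 9.70 and 9.15 on the isoflurane arrays of the set. Of these 5, isoflurane replicate 9 lay within the oxygen range and the other 4 above it. On Pcp2-low arrays it had 9.22, 9.05, 8.90 and 9.31 after oxygen and 9.47, 9.18, 9.30, 9.58 and 9.20 after isoflurane. The blocked change was 0.29 ± 0.086 SE (adjusted p = 0.044). This call was the least stable of the 5: it was kept in 5 of the 20 fits that left out 1 array (without oxygen replicate 1, 6 or 9 or isoflurane replicate 9 or 10), and its adjusted p ran from 0.010 to 0.084 over the 20. It was also lost with arrays centred on their medians (0.22).

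Ndufaf5 encodes an assembly factor that modifies the core subunit Ndufs7 while complex I is built. On Pcp2-low arrays it had 8.98, 8.68, 9.07 and 8.98 after oxygen and 9.84, 9.77, 9.90, 10.08 and 9.34 after isoflurane. The 2 ranges did not overlap, and isoflurane replicate 10 was the lowest of the 5. On Pcp2-high arrays the oxygen values had 9.18 as the lowest, 9.37 as the median and 9.52 as the highest, and the isoflurane values were 9.37, 9.59, 9.60, 9.62 and 9.21. The change was 0.86 ± 0.15 SE within the Pcp2-low arrays (adjusted p = 0.0087) and 0.13 within the Pcp2-high arrays (adjusted p = 0.57). The interaction of group and array set was -0.73 ± 0.18 SE (adjusted p = 0.016), so the rise was larger on Pcp2-low arrays. Without isoflurane replicates 2, 4, 5 and 6 the Pcp2-low change rested on isoflurane replicate 10 alone and was 0.41 (adjusted p = 0.90). The blocked call (0.46 ± 0.12 SE, adjusted p = 0.028) was lost without oxygen replicate 2 or 4 or isoflurane replicate 2, 4 or 5, where adjusted p reached 0.062.

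Atp5if1 encodes the inhibitor that stops ATP synthase from running backwards and splitting ATP when the proton gradient fails. It had 11.02 (lowest), 11.32 (median) and 11.43 (highest) on Pcp2-high oxygen arrays and 11.66, 11.64, 11.67, 11.76 and 11.17 on Pcp2-high isoflurane arrays. On Pcp2-low arrays it had 11.73, 11.90, 11.96 and 11.70 after oxygen and 12.14, 12.17, 12.29, 12.29 and 11.95 after isoflurane. In each set 4 isoflurane arrays lay above all oxygen arrays and 1 (replicate 9 or 10) within their range. The blocked change was 0.34 ± 0.077 SE (adjusted p = 0.016), with 0.34 on Pcp2-high and 0.35 on Pcp2-low arrays, and was past the threshold in 20 of 20 fits that left out 1 array. It was 0.27 with arrays centred on their medians and 0.21 with its 3 probe sets averaged, and not past the threshold in either.

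Cox4i2, the form of subunit 4 known to be induced by low oxygen, had 6.74, 7.09, 6.69 and 7.17 on Pcp2-low oxygen arrays and 5.29, 5.96, 6.09, 6.02 and 6.14 on Pcp2-low isoflurane arrays. All 5 isoflurane values lay below all 4 oxygen values. On Pcp2-high arrays it had 6.69 (lowest), 7.07 (median) and 7.46 (highest) after oxygen and 6.59, 6.33, 7.05, 6.94 and 7.08 after isoflurane, which overlapped. The blocked change was -0.61 ± 0.17 SE (adjusted p = 0.033), and it was -1.02 on Pcp2-low and -0.28 on Pcp2-high arrays. Cox4i2 passed the filter at 6.62 through its oxygen arrays: its mean was 7.01 over the 10 oxygen and 6.35 over the 10 isoflurane arrays. All 5 Pcp2-low isoflurane values lay below the filter, and the blocked call was lost with no filter. Both the call and the size of the change are therefore uncertain. The call was kept in 9 of 20 fits that left out 1 array (without any 1 of oxygen replicates 6 to 10 or isoflurane replicates 7 to 10), with adjusted p from 0.012 to 0.075. Its usual partner Cox4i1, the form made in most tissues, changed by 0.05 (adjusted p = 0.76).

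**Figure D1:**
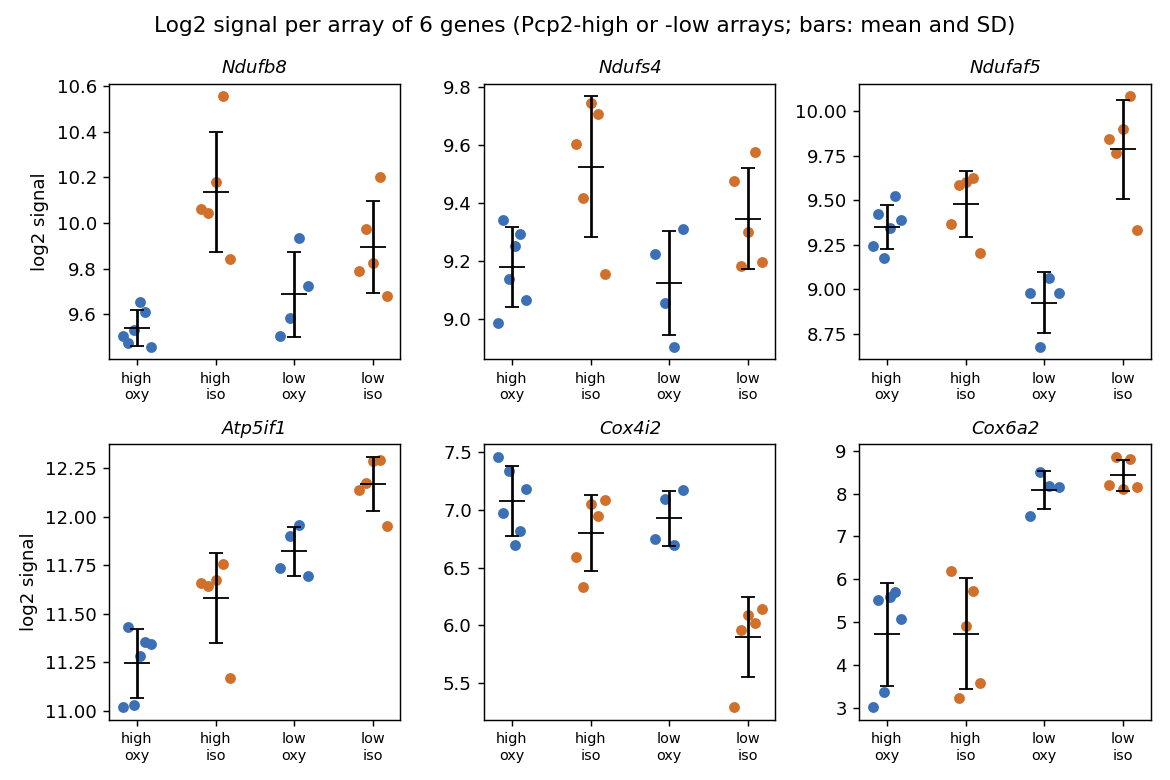
Log2 signal of 6 genes on each array (points; blue oxygen, orange isoflurane), by array set and group, with mean and SD (bars). All 5 Pcp2-high isoflurane arrays are above the oxygen arrays for Ndufb8, Cox4i2 is below 6.2 on all 5 Pcp2-low isoflurane arrays, and Cox6a2 separates the 2 sets of arrays.

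No other gene of the 5 complexes passed the test in the blocked fit. In complex I the next by p were the subunits Ndufa11 (0.20, adjusted p = 0.057), Ndufa5 (0.27, adjusted p = 0.069) and Ndufa8 (0.18, adjusted p = 0.072). In complex V they were the peripheral stalk subunit Atp5pb (0.29, adjusted p = 0.055), the central stalk subunit Atp5f1c (0.15, adjusted p = 0.115) and the catalytic subunit Atp5f1b (0.13, adjusted p = 0.21). In complex III they were the Rieske iron-sulfur protein Uqcrfs1 (0.15, adjusted p = 0.166) and the core subunit Uqcrc2 (0.16, adjusted p = 0.167). In complex IV, after Cox4i2, they were Cox7a2l, a factor in joining complexes III and IV (0.13, adjusted p = 0.22), Cox6a1 (0.14, adjusted p = 0.24) and Cox7c (0.20, adjusted p = 0.24). Among the other assembly factors the lowest p belonged to Ndufaf1 (0.21, adjusted p = 0.29).

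Complex II, which is also an enzyme of the tricarboxylic acid cycle, has 4 subunits. Its blocked changes were 0.12 for the flavoprotein Sdha (adjusted p = 0.148), 0.11 for the iron-sulfur subunit Sdhb (adjusted p = 0.38), and 0.11 and 0.023 for the membrane anchors Sdhc (adjusted p = 0.52) and Sdhd (adjusted p = 0.83). A second, dimmer probe set of Sdhd, looked at after its values were seen, changed by 0.42 ± 0.12 SE (adjusted p = 0.034), so the 2 probe sets of Sdhd disagree. Over the 10 further probe sets of these genes, 9 had the sign of the brightest one.

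The 82 genes were next described by complex. The median blocked log2 change was 0.071 for complex I, 0.075 for its assembly factors, 0.109 for complex II, 0.081 for complex III, 0.085 for complex IV and 0.061 for complex V, beside 0.0035 over all probe sets tested. Changes were above 0 for 65 of the 82 genes (26 of 36 in complex I, 4 of 6 assembly factors, 4 of 4 in complex II, 6 of 7 in complex III, 12 of 13 in complex IV and 13 of 16 in complex V). The background was 50.6% of all probe sets. Among the 1213 probe sets at least as bright as the lower quartile of the 82 genes (log2 11.60 or above), 61.0% were above 0, with a median of 0.037. All 6 medians lay within the quartiles of the complex I genes, from -0.013 to 0.115. With the array set left out, 67 of 82 were above 0 (background 49.7%). Without isoflurane replicates 2, 4, 5 and 6 there were 79 of 82, beside 53.7% of all and 71.6% of the equally bright probe sets. With arrays centred on their medians there were 41 of 82, beside 37.0% of all and 39.1% of the equally bright probe sets. That scaling moved the median of all probe sets to -0.072.

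**Figure D2:**
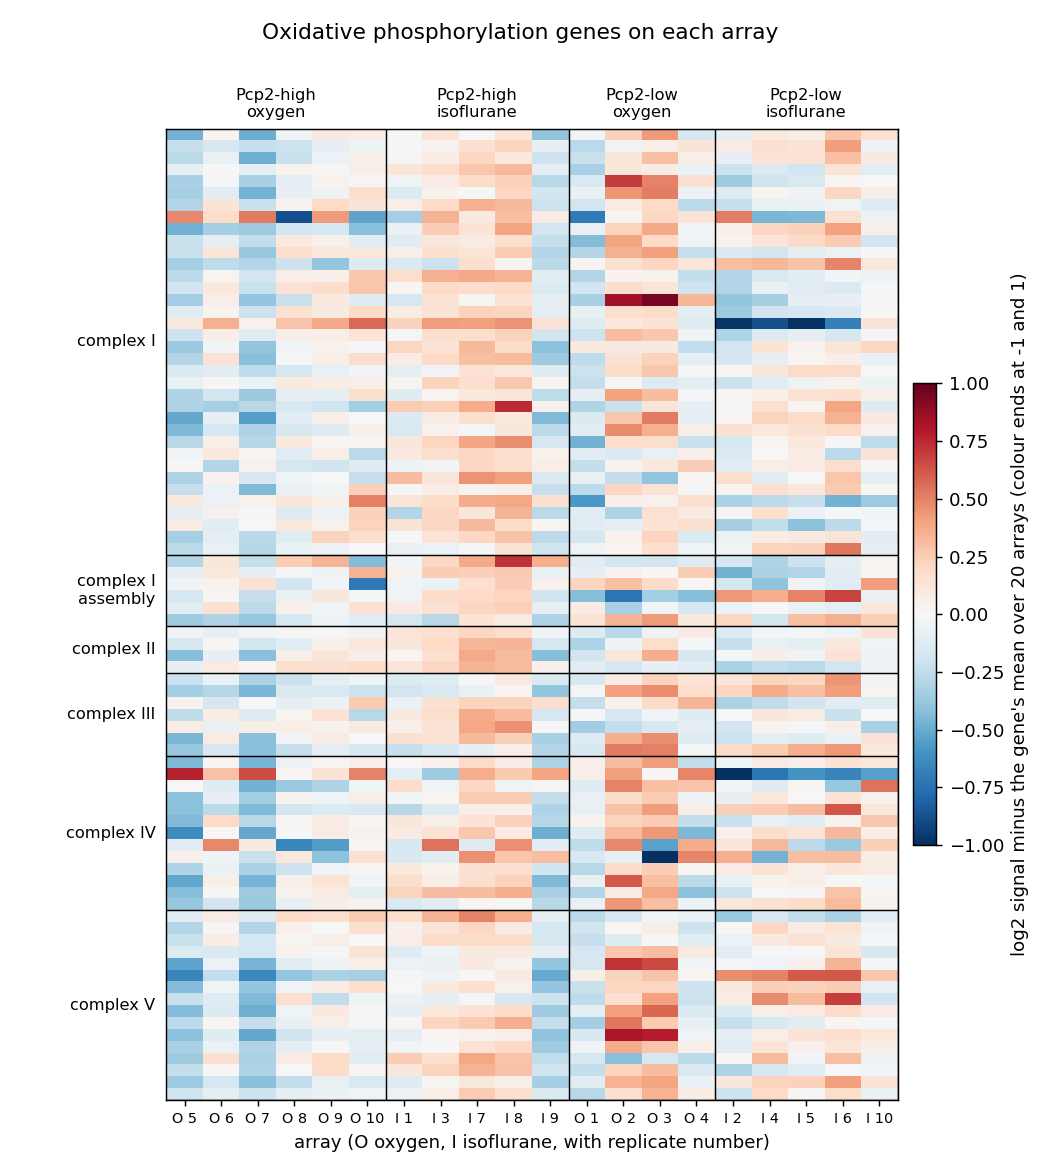
Heat map of the 82 tested genes (rows, by complex) on the 20 arrays (columns, by array set and group), coloured by log2 signal minus the gene's mean over all arrays. Whole columns tend to one colour: most rows are blue on oxygen replicates 5 and 7 and isoflurane replicate 9, and red on oxygen replicates 2 and 3 and isoflurane replicates 7 and 8.

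Within the Pcp2-high arrays, changes were small and nearly all in 1 direction. None of the 82 genes passed the test (limma, 0 called, with 12 at an unadjusted p under 0.05, all higher), and neither did any of the 18625 probe sets (0% called, with 12.8% at an unadjusted p under 0.05). The 12 were Ndufb8, Ndufs4, Ndufa5, Ndufa11, Ndufc2, Ndufs1 and Ndufs3 of complex I, Sdha of complex II, Cox5a, Cox7a2l and Cox7c of complex IV, and Atp5if1. Changes were above 0 for 81 of 82 genes, Cox4i2 being the exception. The background was 49.5% of all probe sets and 73.2% of the 1213 equally bright ones. After quantile normalization changes were above 0 for 73 of 82, beside 52.5% of all and 56.0% of the equally bright probe sets. Without that step the median change of the 82 was 0.150, against -0.002 over all probe sets and 0.098 over the equally bright ones. By complex it was 0.143 for complex I, 0.128 for the assembly factors, 0.183 for complex II, 0.147 for complex III, 0.185 for complex IV (0.046 after quantile normalization) and 0.166 for complex V.

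The genes were averaged on each array to show which arrays carried this. Over complex I the mean log2 signal was 11.58, 11.76, 11.56, 11.73, 11.81 and 11.83 on the Pcp2-high oxygen arrays and 11.79, 11.92, 11.98, 12.03 and 11.63 on the Pcp2-high isoflurane arrays. Over complex II it was 11.90, 12.06, 11.92, 12.10, 12.15 and 12.16 after oxygen and 12.17, 12.26, 12.39, 12.36 and 11.93 after isoflurane. Isoflurane replicates 3, 7 and 8 were above every oxygen array in both complexes, and isoflurane replicate 9 was level with the lowest oxygen arrays. Over complex V the mean was 12.61 ± 0.16 (SD, n = 6) after oxygen and 12.77 ± 0.18 (n = 5) after isoflurane, over complex III 12.55 ± 0.09 and 12.70 ± 0.15, over complex IV 11.32 ± 0.13 and 11.47 ± 0.15, and over the assembly factors 9.19 ± 0.10 and 9.37 ± 0.15. Each of these differences is about as large as the SD of the isoflurane arrays. In the same set the mean log2 signal of the 6 granule cell markers ran from 11.95 to 12.29 after oxygen and from 12.02 to 12.36 after isoflurane, and that of the 4 Purkinje markers from 13.27 to 13.66 and from 13.31 to 13.89; their part in the difference was not tested. Oxygen replicates 5 and 7 and isoflurane replicate 9, the lowest in complex I, also had the lowest Pcp2 of the set (log2 13.60 to 13.65, against 13.90 to 14.17). Without isoflurane replicate 9, 5 of the 82 genes passed the test within the set, against 5.83% of all probe sets. The median change was then 0.201, against 0.134 over the equally bright probe sets. Replicate 9 had the highest 3' to 5' ratio of the set (1.34, against 0.75 to 0.93 on its other isoflurane arrays). Leaving it out therefore widens the difference in ratio between the groups, and the part of either was not tested.

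**Figure D3:**
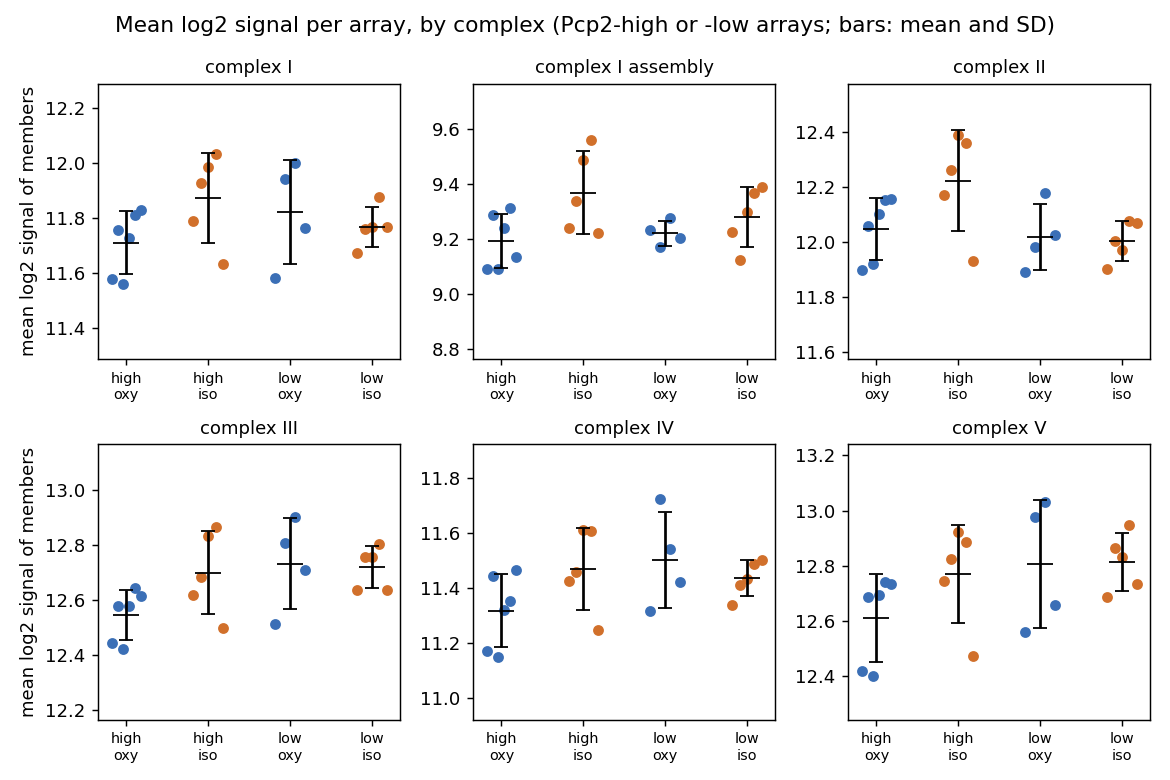
Mean log2 signal of the tested genes of each complex on each array (points; blue oxygen, orange isoflurane; high and low are the array sets), with mean and SD over arrays (bars). On Pcp2-high arrays 4 of 5 isoflurane arrays lie in or above the upper part of the oxygen range and isoflurane replicate 9 lies low in complexes I to V, while the Pcp2-low groups overlap in each complex.

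The 3' to 5' ratio also differed between the groups in both array sets, so RNA quality and isoflurane cannot be told apart here. With the 3' to 5' ratio as a term in the fit, changes within the Pcp2-high arrays were above 0 for 68 of 82 genes with a median of 0.066, beside 47.9% of all and 61.0% of the equally bright probe sets. On Pcp2-low arrays they were above 0 for 61 of 82 with a median of 0.112, beside 49.4% and 54.7%. In the blocked fit they were above 0 for 59 of 82 with a median of 0.053. None of the 82 was then called in the blocked fit (limma, 0 of 82, with 5 at an unadjusted p under 0.05), and neither was any of all 18625 probe sets, of which 8.01% had an unadjusted p under 0.05 and 48.1% were above 0. Ndufb8 had a blocked change of 0.41 there, with an adjusted p of 0.46 in limma.

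Within the Pcp2-low arrays the same genes went both ways, with 41 of 82 above 0 and 41 below and a median of -0.0004, but 6 above and 76 below when arrays were centred on their medians, which moved the median of all probe sets to -0.21, and 61 above and 21 below with the 3' to 5' ratio as a term. Of the 82, 3 rose (Ndufaf5, Atp5if1 and Atp5pb) and 2 fell (Cox4i2, with its isoflurane values under the filter, and Ndufb11). The background was 11.2% and 7.42% of all probe sets (18.6% in either direction). At an unadjusted p under 0.05 there were 11 of 82, 8 of them lower, against 35% of all probe sets. Atp5pb, the b subunit of the peripheral stalk of ATP synthase, had 13.00, 12.76, 13.01 and 12.93 after oxygen and 13.19, 13.50, 13.16, 13.49 and 13.12 after isoflurane, with no overlap. Its change was 0.37 ± 0.11 SE (adjusted p = 0.039). Ndufb11, an accessory subunit of the membrane arm of complex I, had 12.23, 12.46, 12.49 and 12.23 after oxygen and 11.38, 11.48, 11.36, 11.67 and 12.48 after isoflurane. Replicates 2, 4, 5 and 6 lay below all oxygen arrays and replicate 10 was level with the highest of them. The change was -0.68 ± 0.21 SE (adjusted p = 0.041), and 0.13 (adjusted p = 0.94) without those 4 arrays. None of the 82 was called in this set without them (limma, 0 at an unadjusted p under 0.05 too, against 4.7% of all probe sets), with isoflurane replicate 10 assumed to vary like the oxygen arrays. Changes were then above 0 for 32 of 82, beside 56.8% of all and 46.0% of the equally bright probe sets. Ranges did not overlap for 2 genes that were higher (Ndufaf5 and Atp5pb; background 6.7%) and 1 that was lower (Cox4i2; background 6.52%).

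**Figure D4:**
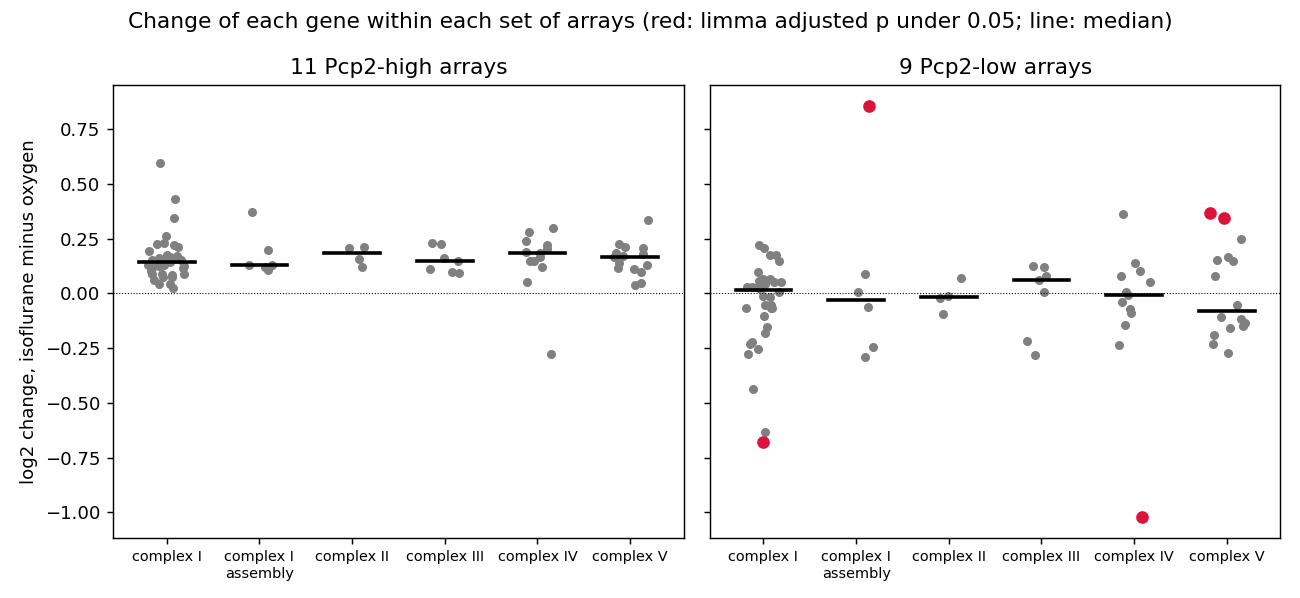
Log2 change from oxygen to isoflurane of each tested gene (points) within the 11 Pcp2-high and the 9 Pcp2-low arrays, by complex, with the median of each complex (line) and genes past the test in red. Points lie just above 0 in every complex on the Pcp2-high arrays apart from Cox4i2 at -0.28, and on both sides of 0 on the Pcp2-low arrays.

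Whether the change differed between the array sets was tested as an interaction. Of the 82 genes 4 were called (Ndufaf5, Ndufb1, Ndufb11 and Ndufv1), 3 with a difference above 0 (the change on Pcp2-high minus that on Pcp2-low arrays) and 1, Ndufaf5, below 0, against 2.58% and 7.61% of all probe sets (10.2% in either direction). Ndufv1, the core subunit that binds NADH, had 11.80, 11.82, 12.05 and 12.07 on Pcp2-low oxygen arrays and 11.58, 11.67, 11.50, 11.65 and 11.89 on Pcp2-low isoflurane arrays. It changed by 0.12 on Pcp2-high and by -0.28 on Pcp2-low arrays, and the difference was 0.39 ± 0.12 SE (adjusted p = 0.049). Ndufb1, a small accessory subunit, had 11.55, 12.71, 12.82 and 12.20 after oxygen and 11.48, 11.54, 11.78, 11.79 and 11.85 after isoflurane in the Pcp2-low set, with 0.16 and -0.63 as its changes in the Pcp2-high and Pcp2-low sets. Without isoflurane replicates 2, 4, 5 and 6 none of the 82 was called in the interaction (limma, 0 called, with 1 at an unadjusted p under 0.05), against 0.0107% of all probe sets above 0 and 0.0591% below (0.0698% in either direction, and 4.24% at an unadjusted p under 0.05). The interaction was above 0 for 70 of the 82 genes (median 0.20), beside 69.3% of the equally bright probe sets (median 0.13) and 50.2% of all. It was above 0 for 59 after quantile normalization, beside 57.0% of all and 55.7% of the equally bright probe sets. With arrays centred on their medians, which moved the median of all probe sets to 0.25, it was above 0 for 81, beside 70.1% and 89.8%. Without those 4 arrays it was above 0 for 73, beside 41.8% of all and 71.8% of the equally bright probe sets. At an unadjusted p under 0.05 there were 17 of 82, against 27.5% of all probe sets.

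Signals of these genes varied together from array to array. After the mean of each group in each array set was taken away, the median Pearson r over the 3321 pairs of these genes was 0.56 across the 20 arrays, and 87.9% of pairs were above 0. Over all pairs of probe sets the median was 0.0007, and over pairs of the 1213 equally bright probe sets it was 0.16 with 63.1% above 0. By complex the median r was 0.76 in complex V, 0.64 in complex II, 0.59 in complex I, 0.45 in complex III, 0.29 in complex IV and 0.25 among the assembly factors, and 0.53 for pairs in different groups. All values of an array share its RNA, labelling and scaling, so r is a description with no test, and the 82 genes are not 82 independent observations. The genes that followed the mean of the others most closely were Ndufb4 (r = 0.96), Atp5pd (0.96) and Ndufb9 (0.95). Those that followed it least were the alternative complex IV forms Cox7a1 (-0.23) and Cox4i2 (-0.13) and the assembly factor Ndufaf4 (-0.08).

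The array sets themselves were compared next, without a test, since they were read from the same arrays. None of the 82 genes had ranges that did not overlap between all 11 Pcp2-high and all 9 Pcp2-low arrays, against 9.47% of all probe sets that were higher and 9.34% that were lower. The median difference in mean log2 signal, Pcp2-high minus Pcp2-low, was -0.043 over the 82 genes and 0.104 over all probe sets. It was 0.007 for complex I, 0.089 for the assembly factors, 0.111 for complex II, -0.048 for complex III, -0.118 for complex IV and -0.110 for complex V. Among oxygen arrays alone 2 genes were higher without overlap (Ndufaf5 and Uqcrfs1; background 18.2%) and 6 were lower (Ndufa5, Ndufa8, Ndufaf8, Uqcr11, Cox6a1 and Atp5if1; background 14.7%). Among isoflurane arrays alone 7 were higher (Ndufb11, Ndufs7, Ndufv1, Sdhd, Uqcrc1, Cox4i2 and Atp5f1a; background 19.8%) and 6 lower (Uqcr11, Uqcrq, Cox6a1, Cox8a, Atp5if1 and Atp5pf; background 16.2%).

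Within that near balance 3 of the 82 genes were lower on Pcp2-high arrays without overlap in each group taken alone. Of all probe sets 14.7% were lower in this way among oxygen arrays and 16.2% among isoflurane arrays. The share of all probe sets lower in both groups was not counted, so the 3 genes are described only. Uqcr11, the smallest subunit of complex III, was lower on Pcp2-high arrays by 0.52 among oxygen arrays (12.80 ± 0.12, n = 6, against 13.33 ± 0.22, n = 4) and by 0.42 among isoflurane arrays (12.91 ± 0.15 against 13.33 ± 0.15, n = 5 each). Atp5if1 was lower by 0.58 among oxygen arrays (11.25 ± 0.18 against 11.82 ± 0.13) and by 0.59 among isoflurane arrays (11.58 ± 0.23 against 12.17 ± 0.14). Cox6a1, the broadly made form of subunit 6a, was lower by 0.44 (13.00 ± 0.13 against 13.43 ± 0.22) and 0.43 (13.14 ± 0.17 against 13.57 ± 0.19). Others separated the sets in 1 group only. The Rieske protein Uqcrfs1 was higher on Pcp2-high arrays by 0.25 among oxygen arrays, and by 0.29 with overlap among isoflurane arrays. Atp5f1a, the alpha subunit of ATP synthase, was higher by 0.21 with overlap among oxygen arrays and by 0.50 among isoflurane arrays. Ndufs7, the core subunit that holds the last iron-sulfur cluster before ubiquinone, was higher by 0.20 with overlap and by 0.57.

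Cox6a2, the form of subunit 6a known from heart and skeletal muscle, was the 1 gene of the 86 that separated all arrays of the sets. On Pcp2-high arrays it had 3.02 (lowest), 5.31 (median) and 5.70 (highest) after oxygen and 6.20, 3.25, 4.91, 5.72 and 3.59 after isoflurane. On Pcp2-low arrays it had 7.48, 8.51, 8.18 and 8.16 after oxygen and 8.20, 8.85, 8.11, 8.80 and 8.16 after isoflurane. Every Pcp2-low array was above every Pcp2-high array. The difference, Pcp2-high minus Pcp2-low, was -3.36 among oxygen and -3.69 among isoflurane arrays, and since all Pcp2-high signals lay under the filter of 6.62, its size there is uncertain. Among the other alternative forms, Cox7a1 had a mean of 7.02 ± 0.22 (n = 6) on Pcp2-high and 6.83 ± 0.72 (n = 4) on Pcp2-low oxygen arrays, Cox6b2 6.32 ± 0.42 and 5.98 ± 0.26, Cox8b 3.86 ± 1.66 and 4.13 ± 1.61, Cox7b2 5.07 ± 0.40 and 5.90 ± 0.36, and Ndufa4l2 6.95 ± 0.59 and 6.83 ± 0.42. None of these 5 separated the sets. The c ring gene Atp5mc3 had 13.42 ± 0.25 and 13.53 ± 0.25.

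**Figure D5:**
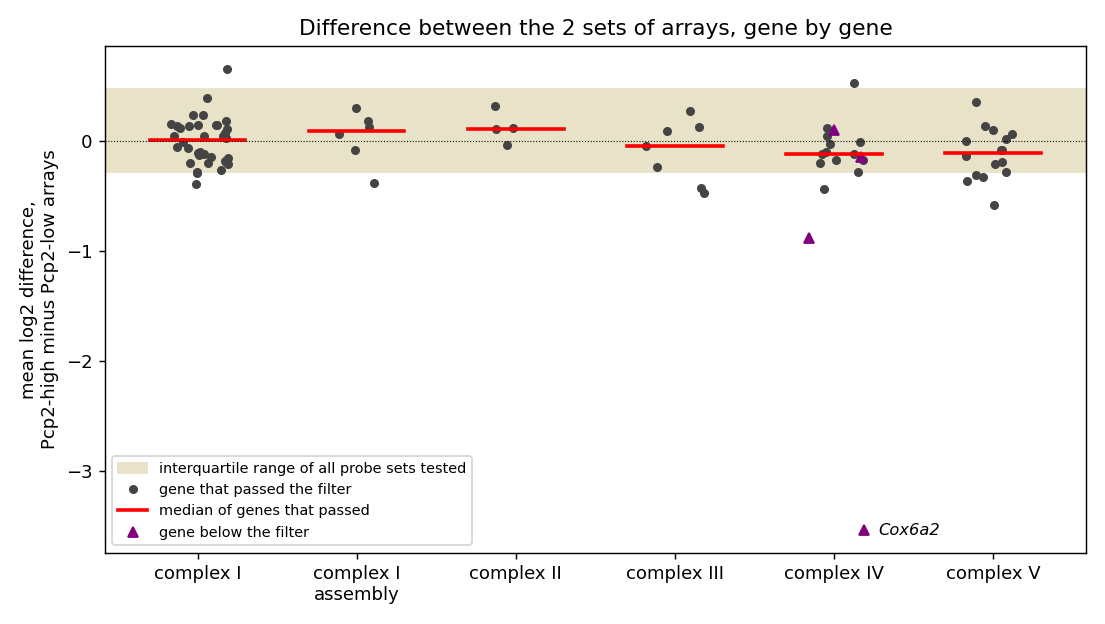
Mean log2 difference between Pcp2-high and Pcp2-low arrays for each gene (points; triangles are genes under the filter), by complex, with the median (red line) and the interquartile range of all probe sets tested (band). Nearly all genes lie within 0.6 of 0, and Cox6a2 lies at about -3.5.

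Other mitochondrial genes were counted for comparison, from lists chosen with earlier results of these data known. In the blocked fit the background was 2.58% of all probe sets higher and 4.79% lower, with 27.1% at an unadjusted p under 0.05 in limma. Of 48 electron carrier and assembly genes 1 passed the blocked test, Coq9 of ubiquinone synthesis, which fell by 0.27 (adjusted p = 0.032). Of 14 tricarboxylic acid cycle genes and 17 regulators of mitochondrial biogenesis none did (limma, 0 called, with 2 of each list at an unadjusted p under 0.05). Of 13 carriers Slc25a4, the ADP/ATP exchanger, rose by 0.28 (adjusted p = 0.042), and the glutamate carrier Slc25a22 (-0.40, adjusted p = 0.030) and the uncoupling protein gene Ucp2 (-0.48, adjusted p = 0.049) fell. Of 73 mitochondrial ribosome genes 1 rose (Mrps31, 0.27) and 2 fell (Mrpl38, -0.43, and Mrps2, -0.28), and of 23 import genes Timm21 rose (0.26) and Tomm40 fell (-0.28). None of these was called without isoflurane replicates 2, 4, 5 and 6, where 0% of all probe sets were called. Within the Pcp2-high arrays the median change of these lists was 0.059, 0.120, 0.035, 0.112, 0.108 and 0.098 in the order given, each below the 0.150 of the 82 genes. No list was tested against another, and the lists differed in brightness. On Pcp2-high oxygen arrays the mean log2 signal was 9.0 to 9.1 for the regulators, 11.4 to 11.5 for the tricarboxylic acid cycle and 11.4 to 11.7 for the carriers. It was 11.6 to 11.8 for the 82 genes. The part of brightness in this order was not tested.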

How the data were processed

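The authors deposited linear intensity values on the MAS5 scale. Per the submitters' processing notes, the tools were Affymetrix Expression Console and MAS5, in versions not given in the sources used here. Each array had been scaled, with a mean trimmed by 2% of 500.1 to 500.2, so changes are relative to an array's average transcript. Array medians ran from 7.20 to 7.57 (log2). Of 31099 probe sets, the 57 control probe sets were set aside. The 2015 values below 1 were set to 1 before log2, and the 18625 probe sets above the 40th percentile of mean log2 signal were tested. In GEO's platform annotation 20826 probe sets had 1 symbol, 436 had several and 9780 had none. Of those with several, 7 named at least 1 gene of these families and were left out. Cox8c, Ndufaf2, Ndufaf6, Atp5mc1, Atp5mc2 and Cox7a2 had no probe set of their own.

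The tests were two-sided limma fits (version 3.58.1, R 4.3.3; lmFit, then eBayes with an intensity trend, Benjamini-Hochberg over all probe sets tested, threshold 0.05), and checked on simulated data. Fits within a set used that set's arrays alone. The number of arrays limits the precision. Replicate numbers showed no pairing of samples across groups: after group and set means were removed, no oxygen array correlated best with the isoflurane array of its own number. Several same-numbered arrays lay in different array sets, so this check cannot exclude pairing. No pair of arrays was the same (highest Pearson r of log2 signals between 2 arrays 0.958). Python 3.11.15 with pandas 2.3.3, numpy 2.4.6 and matplotlib 3.10.9 did the rest.

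The genes and lists were chosen with earlier results of these data known. Genes were named by a written rule: per complex, the lowest p values, the lowest interaction p values and the largest differences between array sets, plus paired isoforms, and 3 genes per other list. Alternatives were other scalings, a pseudocount of 16, other filters, eBayes without trend or robust, array weights, replicate number as a block, the 3' to 5' ratio as covariate, probe set means and each array left out.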

Additional observations from a re-analysis of the deposited data

Results flagged for a closer look

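In 4 genes the change after isoflurane differed between the array sets by the interaction test in limma. The change on Pcp2-high minus that on Pcp2-low arrays was -0.73 for Ndufaf5 (adjusted p = 0.016), 0.79 for Ndufb1 (adjusted p = 0.048), 0.72 for Ndufb11 (adjusted p = 0.049) and 0.39 for Ndufv1 (adjusted p = 0.049). In each the larger change was on the Pcp2-low arrays: upwards for Ndufaf5 and downwards for Ndufb1, Ndufb11 and Ndufv1. Ndufaf5 stayed past the threshold in 20 of 20 fits that left out 1 array, Ndufb1 in 5, and Ndufb11 and Ndufv1 in 4 each. Without isoflurane replicates 2, 4, 5 and 6 the differences were -0.28, 0.63, -0.09 and 0.16, in the same order, and none was called. Single arrays stood apart from their group by Dixon's test in 10 of 240 tests (the named genes and the complex means, in each group of each array set), where chance gives about 1 in 20. Isoflurane replicate 9 was the lowest of its group for Atp5if1 (11.17), Atp5mc3 (13.15) and Cox7c (12.52), isoflurane replicate 1 for Uqcrc1 (12.43), isoflurane replicate 2 for Cox4i2 (5.29) and isoflurane replicate 4 for Ndufaf8 (9.51). Isoflurane replicate 10 was the highest for Ndufb11 (12.48). Oxygen replicate 10 was the highest for Ndufs7 on Pcp2-high arrays (12.30), oxygen replicate 1 the lowest for Ndufs7 on Pcp2-low arrays (11.22), and oxygen replicate 6 the lowest for Uqcrfs1 (12.47).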

How the results depend on the processing

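Percentages in this paragraph are the share of all probe sets called in the same fit. The 5 genes called in the blocked fit (7.37%) became 8 after quantile normalization (7.58%) and 2 with arrays centred on their medians (7.94%). They became 3 with no filter (2.95%) and 10 with array weights (10.1%). There were 0 with the 3' to 5' ratio as covariate (0%), with no array set in the fit (0.397%) or without isoflurane replicates 2, 4, 5 and 6 (0%). With the replicate block the count was 0 (0.156%). The replicate numbers showed no pairing of the samples (r of same-numbered arrays from -0.26 to 0.23), but that check cannot exclude it. The loss of the calls there is therefore not read either way. Leaving out 1 array gave 2 to 10. There were 2 without oxygen replicate 2 or 4 or isoflurane replicate 2, 4 or 5 (2.58% to 3.88%). There were 3 without oxygen replicate 5 (6.08%) or isoflurane replicate 1, 3 or 6 (4.26% to 4.59%), 9 without isoflurane replicate 10 (10.3%) and 10 without isoflurane replicate 9 (15.8%). Within the Pcp2-high arrays 8 were called with array weights (5.77%) and 0 to 5 with 1 array left out (5 without isoflurane replicate 9, 5.83%). Within the Pcp2-low arrays the 5 calls (18.6%) became 9 with median centring (28.2%), 2 without the intensity trend (16.7%), 14 with array weights (36.4%) and 0 with the ratio (0%). With 1 array left out there were 8 without oxygen replicate 1 (21.7%) and 10 without isoflurane replicate 10 (33.6%). There were 1 to 3 without any other array of the set (8.62% to 10.8%). The 4 interaction calls (10.2%) became 1 after quantile normalization (9.32%), with no filter (7.17%), with a filter at the 60th percentile (8.35%), without the trend (9.44%) or with the ratio (10.3%). They became 21 with median centring (20.9%), 27 with array weights (31.2%) and 0 without the 4 arrays. With 1 array left out there were 1 to 9, the 9 without oxygen replicate 1 (14.1%) or isoflurane replicate 10 (23.1%). Of medians by complex, that of complex IV on Pcp2-high arrays fell to 0.046 after quantile normalization. On Pcp2-low arrays median centring gave -0.19 for complex I, -0.24 for the assembly factors, -0.23 for II, -0.15 for III, -0.22 for IV and -0.29 for V. There the assembly factors had -0.14 with the replicate block and 0.21 without the 4 arrays, complex III -0.10 without the 4 arrays, complex IV 0.14 and complex V 0.18 with the ratio. With 1 array left out, Pcp2-low medians ran from -0.16 to 0.10 (complex III from -0.061, without oxygen replicate 1, to 0.096). Genes that did not overlap between the sets numbered 5 after quantile normalization, 1 with no filter, with probe set means or without the 4 arrays, and 0 to 2 with 1 array left out (1 without oxygen replicate 1 or 5, 2 without isoflurane replicate 8). For these counts the share of all probe sets was not taken under each setting, so they show no gain over the background. In the main data that share was 9.47% higher and 9.34% lower. The Pcp2-low medians lie near 0 and several changed sign under these settings, as did the change of Ndufb11 without the 4 arrays (0.13 on Pcp2-low arrays, -0.09 in the interaction). The cause of the moves was not tested. For the genes named singly, 1598 of the values under other settings kept direction and side of the threshold, 58 lost and 23 gained the call.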

Other observations

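The regulators of mitochondrial biogenesis differed from the genes of the 5 complexes in 1 respect, which was seen after their values were known and not tested. Of 17 such genes 5 were higher on all Pcp2-high arrays than on all Pcp2-low arrays, against 9.47% of all probe sets. They were Gabpb1 (0.68 higher in mean log2 signal), a subunit of the factor that reads the ETS letters, the transcription factor Nrf1 (0.65), and Tfam (0.37), Tfb2m (0.68) and Ssbp1 (0.67), whose proteins act on mitochondrial DNA. None of the 82 genes of the complexes separated the same arrays. The coactivator gene Ppargc1a was 0.25 higher, with overlap.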
